A study of Mus musculus with 12 samples.

Results

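A set of 10 genes of the FGF and ERK pathway was followed across mouse embryonic stem cells given the DNA-damaging drug doxorubicin: the ligands Fgf4 and Fgf5, the receptors Fgfr1 and Fgfr2, the feedback inhibitors Dusp6, Spry2 and Spry4, and the ETS transcription factors Etv1, Etv4 and Etv5. They were taken by symbol from the deposited count table, which held all 10 among its 54532 genes. Poly(A)-selected RNA was sequenced from E14 cells, a mouse embryonic stem cell line, in 3 genotypes with 2 libraries for each genotype and treatment. The 6 groups were p53 KO cells given doxorubicin and p53 KO control cells, Dux KO cells given doxorubicin and Dux KO control cells, and wild-type (WT) cells given doxorubicin and WT control cells. Treated cells received 1 µM doxorubicin for 6 h, controls received the vehicle DMSO for 6 h, and the medium of both was then replaced. The time of harvest after that is not given in the sources used here. Each knockout was represented by 2 lines, numbered 1 and 2 in the labels, so each line contributed 1 library per treatment. How the lines were derived is not given in the sources used here.

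Fibroblast growth factors bind receptor tyrosine kinases and switch on the RAS, RAF, MEK and ERK kinases in turn. ERK activity induces its own brakes, among them the ERK phosphatase Dusp6 and the Sprouty proteins, together with the ETS factors Etv1, Etv4 and Etv5, and these genes are widely used as transcriptional readouts of ERK activity. Embryonic stem cells make Fgf4, which drives their exit from the naive pluripotent state through ERK. All 6 groups were grown on gelatin in 2i+LIF medium with serum, and 2i contains PD0325901, an inhibitor of MEK. Each comparison below was thus made between cells grown with a MEK inhibitor. RNA levels do not measure MEK or ERK activity itself.

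Promoter windows are shown for the pairs of genes whose levels moved most alike over the 11 libraries tested, Fgf4 with Etv5 (Pearson correlation 0.84) and Etv1 with Dusp6 (0.87). They are the 250 bases before the start of the gene in the RefSeq table for GRCm38.p6. For the genes followed here, 9 windows from 7 of the 10 genes were searched. These need not be all the windows that the table holds for the 10 genes. For Etv1 and Etv5, which have 2 windows each, the upstream one is shown. Capitals mark the letters GGGCGG or their reverse complement, the GC box bound by Sp-family factors. Lower case marks all other bases, and each line runs 5′ to 3′ on the gene's own strand.
Fgf4, chr7:144861136-144861385, plus strand: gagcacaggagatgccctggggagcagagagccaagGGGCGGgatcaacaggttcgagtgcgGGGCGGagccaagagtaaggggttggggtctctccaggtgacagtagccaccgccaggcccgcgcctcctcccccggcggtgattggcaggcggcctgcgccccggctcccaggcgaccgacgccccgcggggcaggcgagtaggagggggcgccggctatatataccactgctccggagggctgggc
Etv5, chr16:22439571-22439820, minus strand: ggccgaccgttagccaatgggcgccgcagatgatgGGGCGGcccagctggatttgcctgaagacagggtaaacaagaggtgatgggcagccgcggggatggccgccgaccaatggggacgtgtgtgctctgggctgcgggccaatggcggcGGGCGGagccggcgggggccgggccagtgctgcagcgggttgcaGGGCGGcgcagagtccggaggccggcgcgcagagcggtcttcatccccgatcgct
Etv1, chr12:38779832-38780081, plus strand: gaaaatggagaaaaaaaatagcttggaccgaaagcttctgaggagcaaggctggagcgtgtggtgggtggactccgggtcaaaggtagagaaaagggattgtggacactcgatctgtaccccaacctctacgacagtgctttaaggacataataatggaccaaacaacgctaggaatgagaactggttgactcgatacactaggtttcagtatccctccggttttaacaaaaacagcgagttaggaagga
Dusp6, chr10:99262981-99263230, plus strand: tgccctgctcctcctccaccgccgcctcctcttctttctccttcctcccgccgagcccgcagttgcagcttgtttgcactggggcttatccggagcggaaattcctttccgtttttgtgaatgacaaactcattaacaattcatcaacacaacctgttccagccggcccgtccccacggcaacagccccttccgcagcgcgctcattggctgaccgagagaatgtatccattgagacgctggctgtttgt

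Both strands of 250-base windows were searched, and overlapping matches of different motifs were allowed. The Fgf4 window held 2 GC boxes and the Etv5 window held 3, while the windows shown for Etv1 and Dusp6 held 0. A GC box was present in 32.7% of all 32851 windows searched. The ETS letters CCGGAA, found in 12% of all windows, were present in 1 of the 9 windows, that of Fgf5. Shorter ETS letters such as GGAA were not searched. The AP-1 letters TGANTCA (6.75% of windows), the CRE letters TGACGTCA (1.55%), the octamer ATTTGCAT (1.6%) and the CArG box (1.47%) were found in 0 of the 9 windows. The GC content was 71.2% for Fgf4, 71.2% for Etv5, 46.4% for Etv1 and 56.4% for Dusp6. These matches describe the letters in the windows and nothing about binding.

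Total counts were 23270358 to 32807053 in the p53 KO and WT libraries and 50796507 to 56795858 in the Dux KO libraries, so depth differed with the Dux KO genotype. The deposited count column of Dux KO control 2 repeated that of Dux KO doxorubicin 1 in 54532 of 54532 genes. It was left out of the tests, and the level of that library is given from counts recovered from its distinct FPKM column. Tests of Dux KO controls therefore rested on 1 library, and values with the recovered library (12 libraries) are given where they changed a call. Trp53, the gene for p53, had 95.5 and 42.6 CPM (counts scaled to a common library size after TMM normalization) in p53 KO cells given doxorubicin and 72.4 and 39.8 CPM in p53 KO controls, against 135 and 133 CPM in WT cells given doxorubicin and 193 and 159 CPM in WT controls. Reads of Trp53 remained in both p53 KO lines. Cdkn1a, a p53 target, had 47 and 26.2 CPM with doxorubicin and 76.3 and 59.9 CPM in controls of p53 KO cells, against 188 and 186 CPM with doxorubicin and 78.8 and 78.7 CPM in controls of WT cells. Duxf3, the row for Dux, had 0 counts in each Dux KO library, 114, 20, 0 and 14 counts in the p53 KO libraries (doxorubicin 1 and 2, control 1 and 2) and, in WT cells, 670 and 685 counts with doxorubicin, against 2 and 0 counts in controls. A fixed list of 5 stem cell markers (Pou5f1, Sox2, Nanog, Zfp42 and Esrrb) summed to at least 542 CPM in every library. Sums of the fibroblast list were 26.5 to 29.6 CPM with doxorubicin and 4.64 to 5.98 CPM in controls of WT cells. In that list Col1a1 had means of 18.9 and 2.41 CPM, and Thy1 of 7.92 and 2.82 CPM, in treated and control WT cells. Its other genes, Col1a2, Col3a1, Dcn and Lum, had at most 0.93 CPM in any library. The primitive endoderm list summed to 24.1 to 25.1 CPM with doxorubicin and 3.89 to 4.58 CPM in controls of WT cells, and to at most 12.5 CPM in the knockouts. In the knockouts the treated and control sums of both lists did not overlap either, with the treated sums higher. The trophectoderm list summed to 65.5 to 100 CPM with doxorubicin and 21.6 to 22 CPM in controls of WT cells, while its treated and control sums overlapped in both knockouts (28.3 to 64.2 and 12.6 to 87.2 CPM in p53 KO, 8.95 to 17.2 and 6.76 to 24.2 CPM in Dux KO). The list of primed epiblast markers summed to 147 to 183 CPM with doxorubicin and 95.8 to 117 CPM in controls of p53 KO cells, to 54.1 to 71.2 and 90.2 to 95.3 CPM in Dux KO cells, and to 101 to 114 and 132 to 145 CPM in WT cells, higher with the drug in p53 KO and lower in the others. The part of these lists in the results below was not tested.

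**Figure D1:**
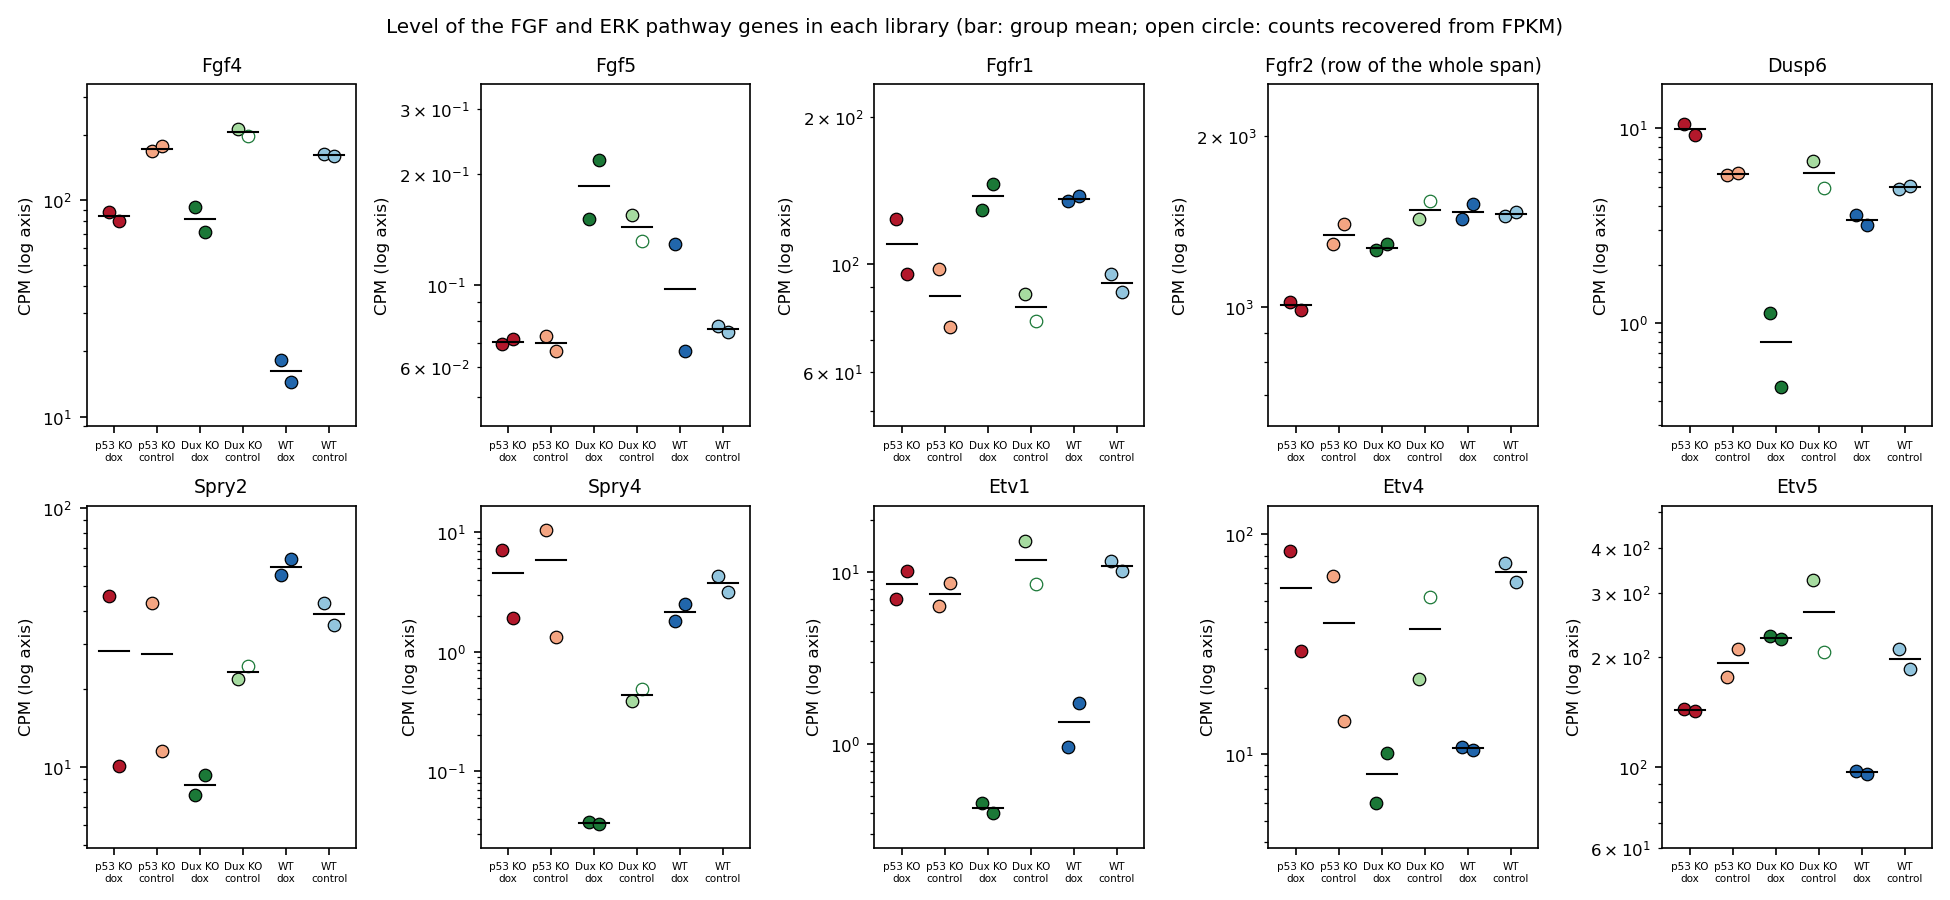
Level of each gene in each library, in CPM on a log axis, with the doxorubicin group of each genotype left of its control. Points are libraries, bars are group means, and open circles mark Dux KO control 2, whose counts were recovered from FPKM; Fgf4 of WT cells given doxorubicin lies at 18.2 and 14.4 CPM, below every other group.

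The drug lowered Fgf4 in every genotype and lowered Etv1, Etv4 and Etv5 in WT cells, while Fgfr1 was higher after the drug in Dux KO and WT cells. By edgeR's quasi-likelihood test over 28643 genes, with Benjamini-Hochberg adjusted p-values called at 0.05, 9 of the 10 genes could be tested. In p53 KO cells 0 of these 9 were called higher and 3 lower with doxorubicin (Fgf4, Etv5 and the Fgfr2 row), beside 9.31% of all genes higher and 8.09% lower. For that 0, DESeq2 and an unadjusted p under 0.05 also gave 0 higher, and limma on log2(FPKM + 1) gave 2. Dux KO cells had 1 called higher and 4 lower, beside 14.5% and 11.9% of all genes. WT cells had 1 called higher and 4 lower, beside 29% and 23.4% of all genes. The median log2 fold change of the 9 genes was 0.04 in p53 KO cells, -1.39 in Dux KO cells and -0.79 in WT cells, where all genes had medians of 0.18, 0 and 0.13.

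**Figure D2:**
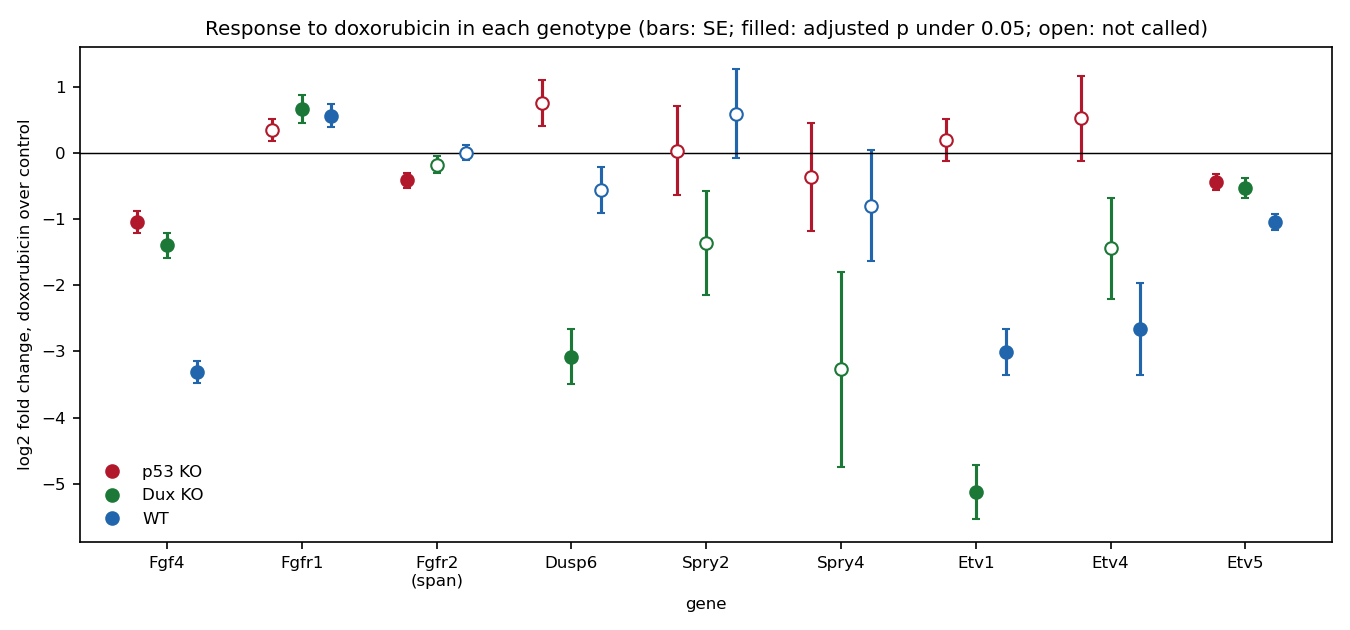
Log2 fold change of each tested gene, doxorubicin over control, in p53 KO, Dux KO and WT cells, with standard errors from edgeR's quasi-likelihood fit. Filled points passed an adjusted p of 0.05; Fgf4 and Etv5 are filled and below 0 in each genotype, and Etv1 is filled in Dux KO and WT cells.

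Fgf4 (ENSMUSG00000050917, chr7:144847367-144865243 in GRCm38, GENCODE M21) encodes the main FGF ligand that embryonic stem cells make for themselves. With p53 knocked out, its level was 88.5 and 80.2 CPM with doxorubicin, against 169 and 178 CPM in controls (log2 -1.04, SE 0.16, adjusted p = 0.005). Dux KO cells had 92.5 and 71.2 CPM with doxorubicin, against 214 and 198 CPM in controls (log2 -1.39, SE 0.19, adjusted p = 0.001). In WT cells it fell to 18.2 and 14.4 CPM with doxorubicin, against 164 and 160 CPM in controls, a 9.92-fold decrease (log2 -3.31, SE 0.17, adjusted p = 6e-06). Treated and control libraries did not overlap in any genotype, and the treated WT libraries lay below those of both knockouts. The decrease was smaller in both knockouts than in WT cells. The response differed by 2.27 (SE 0.23, adjusted p = 0.00046) on the log2 scale between p53 KO and WT cells and by 1.92 (SE 0.26, adjusted p = 0.0047) between Dux KO and WT cells. Leaving out any library of the groups compared kept both differences called, at 2.11 to 2.45 and 1.72 to 2.09.

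Under doxorubicin, Fgf4 was 5.17-fold higher in p53 KO than in WT cells (log2 2.37, SE 0.17, adjusted p = 1.9e-05) and 5.01-fold higher in Dux KO than in WT cells (log2 2.33, SE 0.17, adjusted p = 4.1e-05). Control cells did not reach a call for Fgf4, at log2 0.10 (SE 0.16, adjusted p = 0.85) for p53 KO over WT and 0.40 (SE 0.19, adjusted p = 0.3) for Dux KO over WT. The stem cell markers moved the same way as Fgf4, with 5 of 5 lower with doxorubicin in the mean of each genotype. They summed to 1500 to 1990 CPM with doxorubicin and 3130 to 3430 CPM in controls of p53 KO cells, to 1280 to 1370 CPM with doxorubicin and 3120 to 3720 CPM in controls of Dux KO cells, and to 542 to 636 CPM with doxorubicin and 3520 to 3600 CPM in controls of WT cells. Their part in the Fgf4 result was not tested, and fewer cells of a type and less RNA per cell cannot be told apart in bulk libraries. The Fgf4 row covers a transcript of 15524 bases that starts upstream of the main transcript of 3858 bases (chr7:144861386-144865243), so its per-length values are lower than those of the main transcript alone.

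Fgf5 (ENSMUSG00000029337, chr5:98254184-98277030), a ligand known as a marker of primed epiblast cells, was nearly undetected. It had 2 and 2 counts with doxorubicin and 2 and 2 in controls of p53 KO cells, 8 and 12 with doxorubicin and 8 and 6 in controls of Dux KO cells, and 4 and 2 with doxorubicin and 2 and 2 in controls of WT cells. It did not pass the filter on low counts and was not tested, so a difference was not detectable at this depth.

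Fgfr1 (ENSMUSG00000031565, chr8:25513654-25575718), an FGF receptor of embryonic stem cells, was higher with the drug in Dux KO and WT cells. In p53 KO cells the groups overlapped, with 124 and 95.5 CPM after doxorubicin, against 97.9 and 74.4 CPM in controls (log2 0.35, SE 0.17, adjusted p = 0.18). It had 129 and 146 CPM with doxorubicin, against 86.8 and 76.5 CPM in controls of Dux KO cells (log2 0.67, SE 0.21, adjusted p = 0.048), and 135 and 138 CPM with doxorubicin, against 95.5 and 87.6 CPM in controls of WT cells (log2 0.57, SE 0.17, adjusted p = 0.02). Treated libraries lay above controls in Dux KO and WT cells. Line 1 was above line 2 in both p53 KO groups, and the fit with the knockout line as a replicate block called the p53 KO difference (log2 0.35, adjusted p = 0.0091). The responses of the knockouts did not differ from that of WT cells by a called amount, at -0.22 (SE 0.24, adjusted p = 0.57) for p53 KO and 0.09 (SE 0.27, adjusted p = 0.91) for Dux KO. Without any 1 of the 4 WT libraries the WT call was lost (log2 0.47 to 0.64, adjusted p = 0.064 to 0.12), and without Dux KO doxorubicin 1 or 2 the Dux KO call was lost (adjusted p = 0.083 and 0.18). The antisense gene Gm16159 lies inside the Fgfr1 span and its own count was 7.4% to 11.6% of that of the Fgfr1 row in the 11 libraries. Whether counting used strand is not given in the sources used here, so reads of Fgfr1 and Gm16159 cannot be told apart.

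The row of Fgfr2 (ENSMUSG00000030849), another FGF receptor, could not be read as Fgfr2. FPKM in this series was scaled to whole gene spans, and in GENCODE M21 Fgfr2 spans 2960900 bases (chr7:130162451-133123350, minus strand), because 1 of its 27 transcripts reads through its neighbours. The longest of the other transcripts covers 103813 bases. The span holds 68 other genes, 29 of them protein-coding, and their own counts added up to 84.3% to 98.7% of the Fgfr2 row in the 11 libraries. The row had 1020 and 988 CPM with doxorubicin, against 1290 and 1400 CPM in controls of p53 KO cells (log2 -0.41, SE 0.11, adjusted p = 0.03). It had 1260 and 1290 CPM with doxorubicin, against 1430 and 1540 CPM in controls of Dux KO cells (log2 -0.17, SE 0.13, adjusted p = 0.39), and 1430 and 1520 CPM with doxorubicin, against 1450 and 1470 CPM in controls of WT cells (log2 0.01, SE 0.11, adjusted p = 0.93). The difference between the p53 KO and WT responses of the row was -0.43 (SE 0.15, adjusted p = 0.08, and 0.042 with the replicate block), and under doxorubicin the row was lower in p53 KO than in WT cells (log2 -0.55, SE 0.11, adjusted p = 0.003). The p53 KO call for the drug describes the span and was lost with the recovered library (adjusted p = 0.071) and without p53 KO doxorubicin 2 or control 2 (adjusted p = 0.054 and 0.1).

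**Figure D3:**
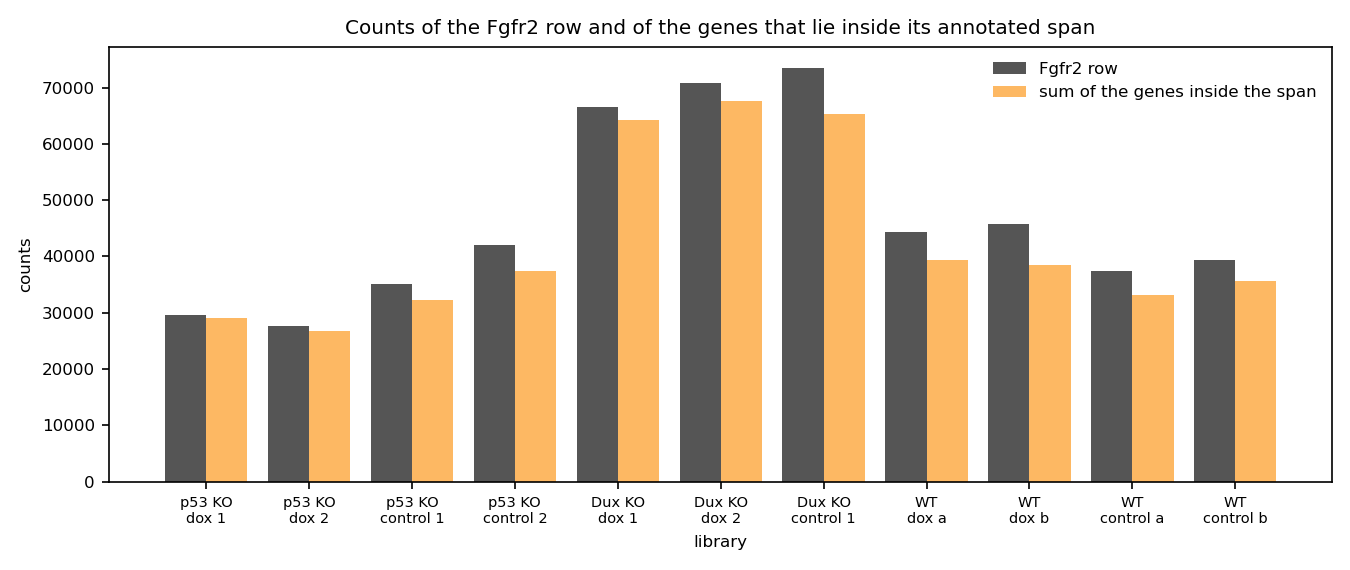
Counts of the Fgfr2 row and summed counts of the 68 genes inside its annotated span, in each of the 11 libraries with deposited counts. The bars of the inner genes reach 84.3% to 98.7% of the Fgfr2 row.

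Among the feedback inhibitors, Dusp6 (ENSMUSG00000019960, chr10:99263231-99267489), a phosphatase that removes the activating phosphates of ERK, fell in Dux KO cells. In the other genotypes it was not called by edgeR without the block. It had 10.5 and 9.28 CPM in p53 KO cells given doxorubicin, against 5.78 and 5.93 CPM in p53 KO controls (log2 0.76, SE 0.35, adjusted p = 0.16, and 0.014 with the replicate block). The 3 limma fits called that p53 KO increase (adjusted p = 0.01 to 0.043). In Dux KO cells it had 1.13 and 0.473 CPM with doxorubicin, against 6.79 and 4.94 CPM in controls, an 8.44-fold decrease (log2 -3.08, SE 0.42, adjusted p = 0.0011). The Dux KO log2 value was -2.88 with 12 libraries and ran from -3.84 to -2.58 with 1 library left out. In WT cells it had 3.6 and 3.19 CPM with doxorubicin, against 4.89 and 5.09 CPM in controls (log2 -0.55, SE 0.35, adjusted p = 0.21, and 0.043 with the replicate block). Treated and control libraries did not overlap in any genotype, and p53 KO cells given doxorubicin held the highest values of the series.

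The Dusp6 response differed between Dux KO and WT cells by -2.52 (SE 0.55, adjusted p = 0.034), and between p53 KO and WT cells by 1.31 (SE 0.49, adjusted p = 0.095, and 0.0046 with the replicate block). The 3 limma fits called the p53 KO difference (adjusted p = 0.0033 to 0.02). The limma fit without a filter did not call the Dux KO difference (-0.66, adjusted p = 0.052). The Dux KO difference lost its call when any 1 of the 4 WT libraries, Dux KO doxorubicin 2 or Dux KO control 1 was left out, at -2.03 to -2.55 with adjusted p = 0.062 to 0.13, and was -3.28 without Dux KO doxorubicin 1. Under doxorubicin Dusp6 was 2.92-fold higher in p53 KO than in WT cells (log2 1.54, SE 0.35, adjusted p = 0.0068) and 4.22-fold lower in Dux KO than in WT cells (log2 -2.08, SE 0.37, adjusted p = 0.0037, and -2.84 to -1.59 with 1 library left out). The first of these lost its call without WT doxorubicin b (log2 1.47, adjusted p = 0.054).

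Spry2 (ENSMUSG00000022114, chr14:105891947-105896819), a Sprouty protein that restrains signalling from receptors to RAS, was low in Dux KO cells given the drug. The p53 KO lines differed more from each other than treatments did, with 45.9 CPM in line 1 and 10.1 CPM in line 2 after doxorubicin, against 43.1 and 11.6 CPM in controls (log2 0.04, SE 0.67, adjusted p = 0.99). Dux KO cells had 7.81 and 9.32 CPM with doxorubicin, against 22 and 24.6 CPM in controls (log2 -1.36, SE 0.79, adjusted p = 0.25). In WT cells it had 55.3 and 63.7 CPM with doxorubicin, against 43.0 and 35.3 CPM in controls (log2 0.60, SE 0.67, adjusted p = 0.47). The groups did not overlap in Dux KO or in WT cells, yet neither of those responses was called in the fit without a block.

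With the knockout line as a block, which removes the difference between lines from the error, Spry2 was called higher with doxorubicin in WT cells (log2 0.60, SE 0.13, adjusted p = 0.0014). It was also called lower in Dux KO cells (log2 -1.49), but there the blocked fit compared doxorubicin 1 with control 1 alone. Line 2 of Dux KO had no control among the 11 libraries. With 12 libraries, which pair both lines, the blocked Dux KO response was -1.45 (adjusted p = 2.6e-05). The blocked fit of 11 libraries also called the difference between the Dux KO and WT responses (-2.10), again from line 1 alone in Dux KO. It called that between the p53 KO and WT responses (-0.64, adjusted p = 0.018). Without the block the differences were -1.96 (adjusted p = 0.31) and -0.57 (adjusted p = 0.74). Under doxorubicin Spry2 was 6.94-fold lower in Dux KO than in WT cells (log2 -2.80, SE 0.71, adjusted p = 0.018), a call that was lost without any 1 of the 4 libraries compared (log2 -2.62 to -2.93, adjusted p = 0.054 to 0.12) and held with the block. For p53 KO over WT cells under doxorubicin it was -1.09 (SE 0.67, adjusted p = 0.22), and -0.44 with the block (adjusted p = 0.023). In values over WT cells the block sets knockout cells at the level of line 1. Here p53 KO line 1 had 45.9 CPM and line 2 had 10.1 CPM. In the authors' deposited table Spry2 had a log2 fold change of 0.64 (adjusted p = 1.2e-05) for doxorubicin over control in WT cells and of -2.81 (adjusted p = 1.6e-67) for Dux KO over WT cells under doxorubicin.

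Spry4 (ENSMUSG00000024427, chr18:38586247-38601415), a Sprouty protein of the same family, was almost absent from Dux KO cells given the drug. Each of the 2 Dux KO libraries with doxorubicin had 2 counts (0.0377 and 0.0364 CPM), against 0.388 and 0.485 CPM in Dux KO controls. The summed counts gave a ratio of 0.0855, with an exact 95% interval for counting error of 0.0223 to 0.236, or of 0.00972 to 0.35 if each pair of counts was 1 fragment. The Dux KO response fell short of a call with 11 libraries (log2 -3.27, SE 1.48, adjusted p = 0.14). It reached a call with 12 libraries (log2 -3.45, adjusted p = 0.048). It also did with the block (log2 -3.25), which with 11 libraries compared doxorubicin 1 with control 1 alone.

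The p53 KO lines stood apart in Spry4 as well, at 7.14 CPM in line 1 and 1.93 CPM in line 2 with doxorubicin, against 10.4 and 1.33 CPM in controls (log2 -0.36, SE 0.82, adjusted p = 0.79). Line 1 was lower and line 2 higher with the drug than without it. WT cells had 1.80 and 2.53 CPM of Spry4 with doxorubicin, against 4.35 and 3.14 CPM in controls (log2 -0.79, SE 0.84, adjusted p = 0.45, and 0.049 with the block). Under doxorubicin Spry4 was lower in Dux KO than in WT cells (log2 -5.74, SE 1.23, adjusted p = 0.0084), though with 2 counts per Dux KO library the fitted value depends on the prior count. The ratio of summed counts was 0.0172, with an interval for counting error of 0.00461 to 0.045, and the call was lost without Dux KO doxorubicin 1 or 2 (adjusted p = 0.071 and 0.065). Control Dux KO libraries were also below WT controls in Spry4, at log2 -3.26 (SE 1.25), which was not called without the block (adjusted p = 0.21) and was called with it (adjusted p = 0.00089). The Dux KO and WT responses of Spry4 differed by -2.48 (SE 1.72, adjusted p = 0.44). For p53 KO over WT cells under doxorubicin Spry4 was 1.07 (SE 0.84, adjusted p = 0.33) without the block and 1.96 (adjusted p = 5e-04) with it.

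**Figure D4:**
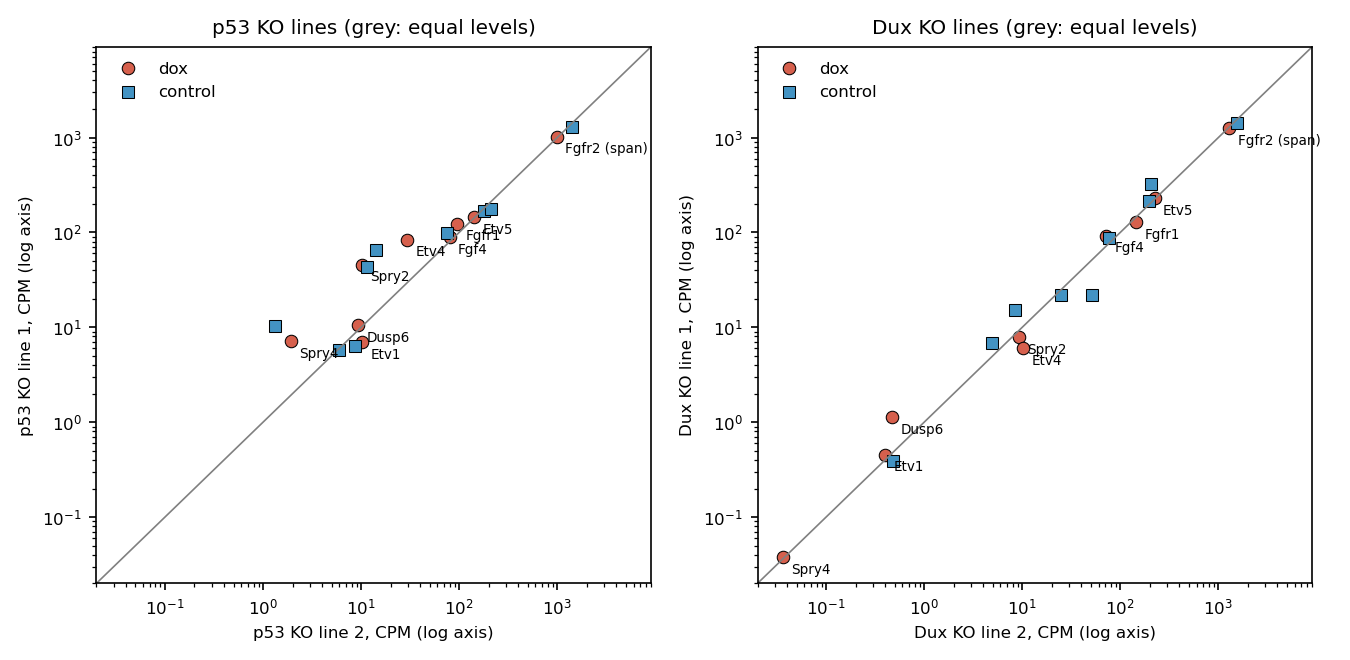
Level of each tested gene in line 1 against line 2 of each knockout, in CPM on log axes, with doxorubicin libraries as circles and control libraries as squares. In p53 KO cells Spry2, Spry4 and Etv4 lie above the line of equal levels in both treatments.

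Spry2, Spry4 and Etv4 differed most between the p53 KO lines, with line 1 the higher in both treatments. Line 1 over line 2 was 4.53 with doxorubicin and 3.72 in controls for Spry2, 3.71 and 7.80 for Spry4, and 2.84 and 4.57 for Etv4. Smaller ratios of a kept direction were those of Fgfr1, at 1.30 and 1.32, and Etv1, at 0.68 and 0.741. Fgf4 gave 1.10 and 0.95, so the lines did not stand apart in every gene. Across 10382 genes the difference between line 1 and line 2 with doxorubicin correlated with that in controls at 0.76 in p53 KO and 0.20 in Dux KO cells, a description over genes of the same 4 libraries. Each line has 1 library per treatment, so a difference between lines has no replicate of its own.

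Of the ETS factors, Etv1 and Etv4 fell with doxorubicin in WT cells and were not called in p53 KO cells. Etv1 (ENSMUSG00000004151, chr12:38779380-38870484) had 6.94 and 10.2 CPM with doxorubicin, against 6.36 and 8.59 CPM in controls of p53 KO cells (log2 0.20, SE 0.32, adjusted p = 0.7). It had 0.453 and 0.4 CPM with doxorubicin, against 15.1 and 8.53 CPM in controls of Dux KO cells, a 35.1-fold decrease (log2 -5.13, SE 0.41, adjusted p = 0.00016, -4.79 with 12 libraries and -4.31 with control 2 in place of control 1). WT cells had 0.965 and 1.73 CPM with doxorubicin, against 11.6 and 10.1 CPM in controls, an 8.05-fold decrease (log2 -3.01, SE 0.35, adjusted p = 0.00015). The p53 KO groups overlapped, while treated and control libraries of the other genotypes lay far apart.

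The Etv1 response differed by 3.21 (SE 0.47, adjusted p = 0.0022) between p53 KO and WT cells, a difference called in every fit that left out 1 library, at 2.84 to 3.69. Between Dux KO and WT cells it differed by -2.13 (SE 0.52, adjusted p = 0.052). That difference was called by DESeq2 (-2.20, adjusted p = 0.0044), with RLE scaling (-2.19) and without WT doxorubicin a (-2.49). It was also called with the block (-2.04), from line 1 alone in Dux KO. It was not called with 12 libraries (-1.79, adjusted p = 0.11). Under doxorubicin Etv1 was 6.36-fold higher in p53 KO than in WT cells (log2 2.67, SE 0.35, adjusted p = 0.00035) and 3.14-fold lower in Dux KO than in WT cells (log2 -1.65, SE 0.37, adjusted p = 0.01). The Dux KO call was lost without WT doxorubicin b (log2 -1.10, adjusted p = 0.12) and without Dux KO doxorubicin 1 or 2 (adjusted p = 0.059 and 0.069).

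Etv4 (ENSMUSG00000017724, chr11:101769742-101785371) had 84.0 and 29.6 CPM with doxorubicin, against 64.8 and 14.2 CPM in controls of p53 KO cells (log2 0.53, SE 0.64, adjusted p = 0.6). In Dux KO cells it had 6.02 and 10.2 CPM with doxorubicin, against 22 and 51.9 CPM in controls (log2 -1.44, SE 0.76, adjusted p = 0.2). WT cells had 10.8 and 10.5 CPM with doxorubicin, against 73.8 and 60.8 CPM in controls, a 6.31-fold decrease (log2 -2.66, SE 0.69, adjusted p = 0.01). The groups overlapped in p53 KO cells and did not in Dux KO and WT cells. Both p53 KO lines were higher with the drug than without it, and the blocked fit called that increase (log2 0.69, SE 0.15, adjusted p = 0.0036). The Dux KO decrease was called with 12 libraries (log2 -2.19, adjusted p = 0.031). It was also called with the block (log2 -1.87), from doxorubicin 1 and control 1 alone.

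The Etv4 response differed by 3.18 (SE 0.93, adjusted p = 0.041) between p53 KO and WT cells and by 1.22 (SE 1.04, adjusted p = 0.55) between Dux KO and WT cells. The p53 KO difference lost its call without p53 KO doxorubicin 1 (2.25, adjusted p = 0.092) or any 1 of the 4 WT libraries (adjusted p = 0.094 to 0.13), and held with the block (adjusted p = 4.4e-07). Without p53 KO control 1 it was 4.66, and without p53 KO control 2 it was 2.47. The WT response itself lost its call without WT doxorubicin a or b (log2 -2.67 and -2.73, adjusted p = 0.062 and 0.058). Under doxorubicin Etv4 was 5.33-fold higher in p53 KO than in WT cells (log2 2.41, SE 0.68, adjusted p = 0.018), which was not called without WT doxorubicin a or b or p53 KO doxorubicin 1 (log2 1.48 to 2.43, adjusted p = 0.094 to 0.1) and was 3.15 with the block. Dux KO and WT cells under doxorubicin differed by -0.39 (SE 0.66, adjusted p = 0.68). With the block the difference was called at -0.82, but from line 1 alone (6.02 CPM). Line 2 of Dux KO had 10.2 CPM, beside 10.8 and 10.5 CPM in WT cells. The p53 KO value with the block is likewise at the level of line 1.

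Etv5 (ENSMUSG00000013089, chr16:22381309-22439719), the third ETS factor, fell 2.05-fold in WT cells. In p53 KO libraries it had 144 and 142 CPM with doxorubicin, against 176 and 210 CPM in controls (log2 -0.43, SE 0.12, adjusted p = 0.041). In Dux KO cells it had 228 and 224 CPM with doxorubicin, against 325 CPM in control 1 and 207 CPM in control 2. WT cells had 97.4 and 95.9 CPM with doxorubicin, against 210 and 186 CPM in controls (log2 -1.04, SE 0.12, adjusted p = 0.00017). Treated libraries lay below controls in p53 KO and WT cells and between the controls in Dux KO cells.

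The Dux KO call for Etv5 (log2 -0.52, SE 0.15, adjusted p = 0.028) rested on control 1. With control 2 in its place the sign turned (log2 0.13, adjusted p = 0.57), and with both controls no call was made (log2 -0.24, adjusted p = 0.37). It was also lost without Dux KO doxorubicin 1 or 2 (adjusted p = 0.088 and 0.11). The p53 KO call was lost with 12 libraries (log2 -0.43, adjusted p = 0.17) and without p53 KO doxorubicin 1 or 2 or control 2 (log2 -0.30 to -0.44, adjusted p = 0.069 to 0.16). The difference between the p53 KO and WT responses was 0.60 (SE 0.17, adjusted p = 0.039), and it was not called with 12 libraries (adjusted p = 0.17), without any 1 of the 4 WT libraries (adjusted p = 0.072 to 0.15) or without p53 KO control 1 (adjusted p = 0.09). Between Dux KO and WT cells the difference was 0.51 (SE 0.19, adjusted p = 0.16), and 1.16 (adjusted p = 0.017) with control 2 in place of control 1. Under doxorubicin Etv5 was 1.48-fold higher in p53 KO than in WT cells (log2 0.57, SE 0.12, adjusted p = 0.0052) and 2.34-fold higher in Dux KO than in WT cells (log2 1.23, SE 0.12, adjusted p = 0.00019).

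Under doxorubicin 5 of the 9 tested genes were called higher (Fgf4, Dusp6, Etv1, Etv4 and Etv5) and 1 lower (the Fgfr2 row) in p53 KO than in WT cells, beside 21.7% and 22% of all genes. In Dux KO over WT cells under doxorubicin, 2 were called higher (Fgf4 and Etv5) and 4 lower (Dusp6, Spry2, Spry4 and Etv1), beside 15.6% and 14.5% of all genes. Among control cells, 0 of 9 were called in either direction for p53 KO over WT (0.14% of all genes higher, 0.747% lower) and 0 of 9 for Dux KO over WT (0.656% higher, 0.346% lower). For p53 KO controls, edgeR at an unadjusted p under 0.05 and DESeq2 also gave 0. For Dux KO controls, edgeR at an unadjusted p under 0.05 gave 1 higher and 1 lower (Etv5 and Spry4) and DESeq2 called the same pair (log2 0.68, adjusted p = 0.0016, and log2 -3.31, adjusted p = 0.032). The replicate block, which sets knockout cells at the level of line 1, called 4 genes in Dux KO controls: Spry2 (log2 -0.83, adjusted p = 0.0046), Spry4, Etv4 (log2 -1.61, adjusted p = 0.00023) and Etv5 (log2 0.71, adjusted p = 0.002, and 0.059 with the block and 12 libraries). In p53 KO controls it called Spry4 (log2 1.27, adjusted p = 0.019).

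As differences between responses, 4 of 9 genes were called higher and 0 lower for p53 KO against WT, beside 9.9% and 10.3% of all genes, and 1 higher and 1 lower for Dux KO against WT, beside 2.1% and 3.15% of all genes. For the 0 lower, an unadjusted p under 0.05 gave 1 gene and DESeq2 gave 1. The treated WT libraries enter the comparisons of both knockouts, so these counts share samples.

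Calls among other genes of the pathway went in both directions. As background, 5 lists of other pathway genes were counted, and the genes named here are among those with the largest called changes within each list. The counts stand beside 9.31% of all genes called higher and 8.09% lower with doxorubicin in p53 KO cells, 14.5% and 11.9% in Dux KO cells, and 29% and 23.4% in WT cells. The other FGF genes listed numbered 15. They include Fgf11, Fgf12 and Fgf13, so the counts are not of secreted ligands alone. In p53 KO cells 3 of the 15 were called higher with doxorubicin. In Dux KO cells 3 were called higher and 1 lower, from 1 control library, and these counts changed with control 2 in its place. In WT cells 5 were called higher and 3 lower, with a median log2 of 0.25 beside 0.13 for all genes. Fgf1, a ligand that binds all FGF receptors, had 6.59 and 1.36 CPM with doxorubicin, against 1.39 and 0.732 CPM in controls of p53 KO cells. It had 0.340 and 0.109 CPM with doxorubicin, against 0.544 and 0.309 CPM in controls of Dux KO cells, and 86.0 and 105 CPM with doxorubicin, against 0.544 and 0.374 CPM in controls of WT cells (log2 7.69, SE 0.81, adjusted p = 8.7e-05 in WT). Its response differed by -5.78 (SE 1.02, adjusted p = 0.0049) between p53 KO and WT cells and by -8.96 (SE 1.26, adjusted p = 0.0058) between Dux KO and WT cells. Fgf18, of the Fgf8 subfamily, rose in Dux KO cells (log2 4.46, adjusted p = 0.0032) and in WT cells (log2 4.49, adjusted p = 0.00021). Fgf17, of the same subfamily, fell in Dux KO cells (log2 -4.36, adjusted p = 0.0013) and in WT cells (log2 -4.83, adjusted p = 0.00024), and its response differed by 4.18 (adjusted p = 0.0058) in p53 KO cells.

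The list of 10 other receptors and co-receptors includes Ext1, an enzyme of heparan sulfate synthesis, so its counts are not of receptors and co-receptors alone. Ext1 was the 1 gene called lower in p53 KO cells (log2 -0.92, adjusted p = 0.0037) and 1 of the 2 called lower in Dux KO cells. Of the 10, 1 was called higher and 1 lower in p53 KO cells, 3 higher and 2 lower in Dux KO cells and 5 higher and 1 lower in WT cells. The 5 became 2 without WT control a, 1 without WT control b and 1 without WT doxorubicin b, and 2 were lower in p53 KO cells without doxorubicin 1. Fgfr4, another FGF receptor, rose in each genotype, with a log2 fold change of 2.05 (adjusted p = 0.0092) in p53 KO cells, 4.81 (adjusted p = 5e-04) in Dux KO cells and 3.03 (adjusted p = 0.00025) in WT cells. It had 46.5 and 47.5 CPM with doxorubicin, against 1.67 and 2.20 CPM in controls of Dux KO cells. Klb, a co-receptor of endocrine FGFs, fell in WT cells (log2 -2.47, adjusted p = 0.0068), a call lost without WT doxorubicin b (log2 -2.17, adjusted p = 0.058).

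Of 22 adaptors and kinases of the cascade, 2 were called higher and 6 lower in p53 KO cells, 4 and 5 in Dux KO cells, and 5 and 8 in WT cells. In WT cells the 5 of 22 higher stood beside 29% of all genes, and the 8 of 22 lower beside 23.4%. In Dux KO cells 2 higher and 2 lower were left without doxorubicin 1, 2 and 1 without doxorubicin 2, and 4 and 2 with control 2 in place of control 1. The 5 higher in WT cells became 3 without control a or doxorubicin b, and the 2 higher in p53 KO cells 0 or 1 without doxorubicin 1, control 1 or control 2. Mapk3, which encodes ERK1, had 14.2 and 9.24 CPM with doxorubicin, against 46.2 and 43.6 CPM in controls of WT cells (log2 -1.94, SE 0.21, adjusted p = 0.00011). Its response differed by 1.62 (adjusted p = 0.0054) in p53 KO cells and by 1.41 (adjusted p = 0.045) in Dux KO cells, the second of which was lost in 6 of the fits that left out 1 library (adjusted p = 0.075 to 0.14). Ksr1, a scaffold of the cascade, rose in WT cells (log2 1.31, adjusted p = 0.00035).

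Of 17 tested inhibitors other than Dusp6, Spry2 and Spry4, 1 was called higher and 2 lower in p53 KO cells, and 4 higher and 6 lower in Dux KO cells. In WT cells 11 were called higher and 1 lower, with a median log2 of 0.76 beside 0.13 for all genes, and 8 or 9 higher and 0 or 1 lower when any 1 WT library was left out. The WT increases included the phosphatase genes Dusp1 (log2 2.56, adjusted p = 2.1e-05), Dusp5 (log2 2.48, adjusted p = 0.00028), Dusp14 (log2 2.14, adjusted p = 0.0012) and Dusp4 (log2 1.94, adjusted p = 0.0022). Dusp4 had 0.189 and 0.182 CPM with doxorubicin, against 1.13 and 0.661 CPM in controls of Dux KO cells (log2 -2.58, adjusted p = 0.0033). Its response thus ran in opposite directions in Dux KO and WT cells, with a difference of -4.52 (SE 0.58, adjusted p = 0.0036). Of the Dux KO calls among these inhibitors, 6 were lower with 11 libraries, 2 with 12, and 2 or 3 when any 1 of the 3 Dux KO libraries was left out. In p53 KO cells 0 to 2 were higher and 0 to 2 lower with 1 library left out.

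Of 19 tested ERK output genes, 3 were called higher and 2 lower in p53 KO cells, 6 and 4 in Dux KO cells and 7 and 3 in WT cells. The Dux KO counts became 3 and 1 without doxorubicin 1 and 4 and 1 without doxorubicin 2. Ets1, another ETS factor, rose to 50.1 and 55.6 CPM in WT cells given doxorubicin, against 0.388 and 0.673 CPM in controls (log2 6.62, SE 0.41, adjusted p = 9.2e-06), and its response differed by -6.03 (adjusted p = 0.00035) in p53 KO cells. The immediate early gene Egr1 rose in p53 KO cells (log2 2.69, adjusted p = 0.0068), in Dux KO cells (log2 2.61, adjusted p = 0.016) and in WT cells, with 2.45 and 2.13 CPM with doxorubicin, against 0.155 and 0.0748 CPM in controls of WT cells (adjusted p = 0.00027). Fos, a subunit of AP-1, rose in p53 KO cells (log2 1.20, adjusted p = 0.0087), in Dux KO cells (log2 3.62, adjusted p = 0.00019) and in WT cells (log2 3.70, adjusted p = 1e-05). In the WT libraries in which Etv1, Etv4 and Etv5 were lower, Ets1, Egr1, Phlda1 and Fosl1 were higher, and Maff (log2 -2.56, adjusted p = 0.00013), Ccnd1 (log2 -2.30, adjusted p = 3.1e-05) and Ier3 (log2 -1.48, adjusted p = 0.0039), named after their values were seen, were lower.

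**Figure D5:**
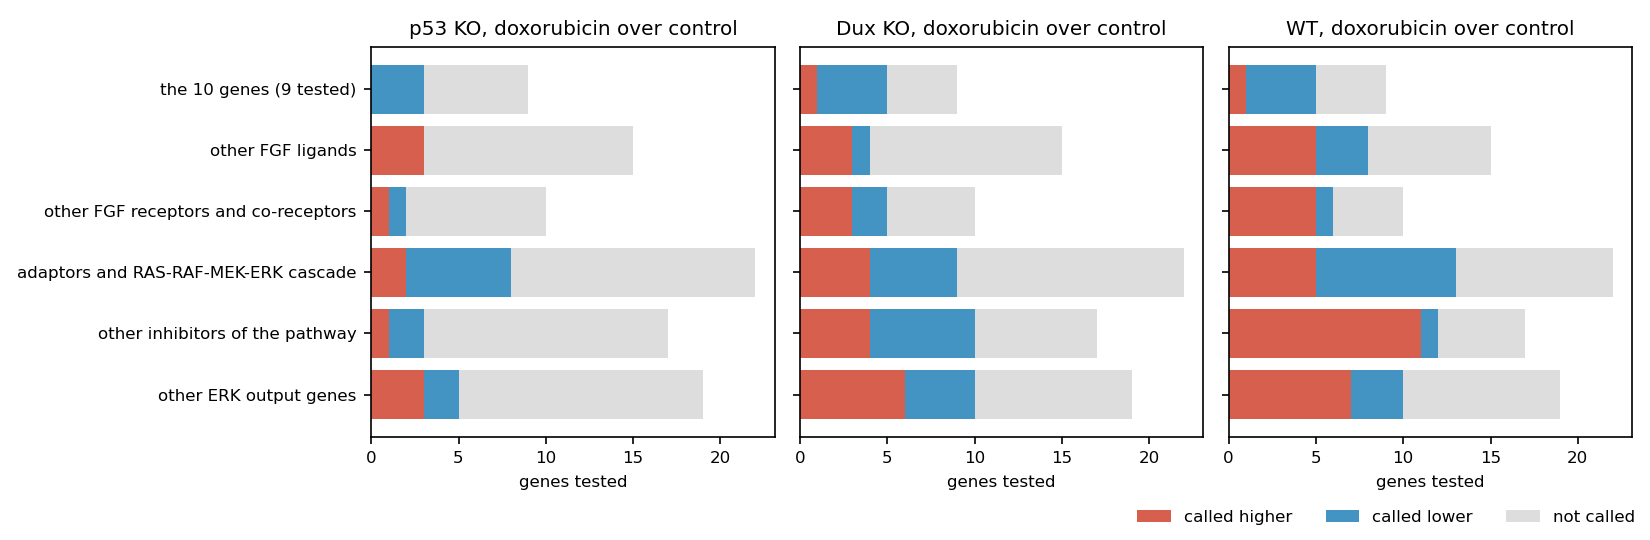
Number of tested genes called higher, called lower or not called with doxorubicin in p53 KO, Dux KO and WT cells, for the 10 genes and 5 lists of other pathway genes. The inhibitors other than Dusp6, Spry2 and Spry4 show 4 higher and 6 lower in Dux KO cells and 11 higher and 1 lower in WT cells.

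By likeness of pattern over the 11 libraries, as the Pearson correlation of log2 CPM among 10381 or 10382 genes with a mean of at least 10 CPM, Fgf4 was closest to Zfp2 (0.994), the pluripotency factor Esrrb (0.992) and Tdgf1 (0.991), a co-receptor for Nodal. Etv5 was closest to Kank2 (0.991) and Spry4 to Cnep1r1 (0.989). Among the genes followed here, the highest correlations were 0.87 between Dusp6 and Etv1 and 0.84 between Fgf4 and Etv5, and the lowest was -0.84 between Fgfr1 and Etv1. The libraries share genotype, treatment and depth, and the closest genes were picked as the highest of all correlations searched over 11 points, so the values are descriptions only.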

How the data were processed

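Gene counts, whole numbers per Ensembl gene, and FPKM values are the authors' deposited tables, and the second also holds the authors' own log2 fold changes and adjusted p-values for 3 comparisons. TopHat2, DESeq, DESeq2 and build mm10 are named in the submitters' processing notes. The read counter, annotation and strand setting are not given in the sources used here. The ratio of count to FPKM was within 2% of a fixed multiple (0.989) of the gene span in GENCODE M21 for 98.7% of 14568 genes. FPKM was thus scaled to whole spans, which alone does not show that introns were counted. The Fgfr2 row, beside the genes inside its span, shows counting over the span for that row. Odd values made up 26.4% to 33.4% of counts of 500 or more, so counts are not independent reads, and intervals cover counting error only. The FPKM table also has 6 columns of group averages that were not used. Counts of Dux KO control 2 were recovered from its FPKM (55638219 counts, with 100.0% of 459 low values within 0.15 of a whole read). Recovery in the libraries with known counts came within 1 read or 1% for at least 95.37% of genes.

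The main test was edgeR 4.0.16 (R 4.3.3) on 11 libraries, with TMM, filterByExpr, 1 mean per group, 5 residual degrees of freedom and Benjamini-Hochberg adjustment over 28643 genes, called at 0.05. It was also run on simulated data with 1 dispersion for every gene, changes in treated WT cells only and no difference between lines. That run does not cover the line differences seen here. Alternatives were RLE scaling, no filter, DESeq2 1.42.0, limma 3.58.1 on log2(FPKM + 1) or log2(FPKM + 0.1), 12 libraries, a replicate block and each library left out. The block pairs the libraries of 1 knockout line, named in the labels, across treatments. With 11 libraries it has 3 residual degrees of freedom. The Dux KO line whose control was left out then has no pair, so the blocked Dux KO response rests on the other line alone. WT titles are numbered across treatments, but the WT columns carry no number that matches them to the titles, so WT libraries were not paired. The duplicates are biological per the design text. Genes named outside the 10 are among the 4 called genes per list and comparison with the largest change, apart from Maff, Ccnd1, Ier3 and the added values of Egr1 in Dux KO and Fos in WT cells, which were chosen after the values were seen. The 10 genes and all lists were chosen with earlier results of these data known.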

Additional observations from a re-analysis of the deposited data

Results flagged for a closer look

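In 6 cases the response to doxorubicin differed between a knockout and WT cells by the test of that difference (edgeR, adjusted p under 0.05). For p53 KO against WT the difference on the log2 scale was 2.27 for Fgf4, 3.21 for Etv1, 3.18 for Etv4 and 0.6 for Etv5, each positive because the decrease seen in WT cells was smaller or absent in p53 KO cells. For Dux KO against WT it was 1.92 for Fgf4 and -2.52 for Dusp6, so that Fgf4 fell less and Dusp6 fell more in Dux KO cells. Both Fgf4 differences and that of Etv1 stayed called whichever single library was left out. Those of Etv4, Etv5 and Dusp6 did not.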

How the results depend on the processing

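Of 81 results for single genes (9 genes in 9 comparisons), 1044 values were computed under alternatives. Apart from leaving out a library, 570 kept their direction and their side of the threshold, 61 gained a call, 25 lost one and 19 changed sign. When 1 library was left out, 296 kept both, 44 lost a call, 5 gained one and 24 changed sign. Fgf4 kept its direction and its side of the threshold whichever library was left out, and with 12 libraries, in each comparison.

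The number of the 9 genes called depended most on the replicate block for the knockout line, which raised it to 8 for the WT response to doxorubicin (5 without the block), 6 for p53 KO (3), 8 for Dux KO (5), 7 for the difference between p53 KO and WT responses (4) and 4 for that between Dux KO and WT (2). Among controls the block called 1 for p53 KO over WT (0) and 4 for Dux KO over WT (0). With 11 libraries the blocked Dux KO values rested on line 1 alone. The block with 12 libraries gave 5 for the p53 KO response, 6 for the difference between Dux KO and WT responses, 1 for p53 KO controls and 3 for Dux KO controls. The p53 KO response had 1 call with 12 libraries and no block. DESeq2 called 2 in Dux KO controls. limma called 3 for the Dux KO response with either pseudocount, and without a filter 1 for the difference between Dux KO and WT responses and 3 for p53 KO over WT under doxorubicin (6 in edgeR). Leaving out 1 library gave 3 to 4 for WT, 1 to 3 for p53 KO, 3 to 5 for Dux KO, 2 to 4 and 1 to 2 for the differences of p53 KO and of Dux KO from WT, and 3 to 5 for Dux KO over WT under doxorubicin. The cause was not tested. With 11 libraries the block changed no call beyond those given with each gene. With 12 libraries and the block, the difference of Dux KO from WT was also called for Spry4 (-2.66, adjusted p = 0.037) and Etv5 (0.82, adjusted p = 0.034), and Etv5 was not called for the p53 KO response (adjusted p = 0.063), the Dux KO response (adjusted p = 0.3) or the difference of p53 KO from WT (adjusted p = 0.059).

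These values changed sign. Fgfr1 turned to 0.02, 0.04 and 0.02 in the 3 limma fits for the difference of p53 KO from WT, to 0.09 and 0.09 with the block (11 and 12 libraries) in p53 KO controls, and, for Dux KO over WT under doxorubicin, to -0.09 with RLE, -0.09 with DESeq2, -0.07 with the block and -0.01 with 12 libraries. The Fgfr2 row turned to 0.02 for the Dux KO response in limma without a filter and to 0.02 in Dux KO controls with 12 libraries. Spry2 turned with the block (11 and 12 libraries) to -0.04 and -0.04 for the p53 KO response and to 0.20 and 0.20 in p53 KO controls. Spry4 turned to 0.09 for the difference of Dux KO from WT in limma without a filter. Etv5 turned to 0.06, 0.08 and 0.06 for the Dux KO response in the limma fits, which include Dux KO control 2.

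With 1 library left out, values that changed sign ranged as follows. In the p53 KO response they were -1.43 to 1.27 for Spry2, -1.6 to 1.77 for Spry4, -0.11 to 0.45 for Etv1 and -0.41 to 2 for Etv4. In the difference of p53 KO from WT they were -2.03 to 0.67 for Spry2 and -0.81 to 2.56 for Spry4. In p53 KO controls they were -0.3 to 0.09 for Fgfr1, -1.76 to 0.14 for Spry2, -1.49 to 1.47 for Spry4 and -0.17 to 0.09 for Etv5, and Spry4 of p53 KO over WT under doxorubicin ran from -0.17 to 1.73. In Dux KO controls they were -0.04 to 0.08 for the Fgfr2 row, -0.02 to 0.47 for Dusp6 and -0.35 to 0.58 for Etv1. Etv5 of the Dux KO response ran from -0.54 to 0.13, Etv4 of the difference of Dux KO from WT from -0.02 to 1.55, Fgfr1 of Dux KO over WT under doxorubicin from -0.08 to 0.1, and the Fgfr2 row of the WT response from -0.12 to 0.06.

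Over all genes, the block raised the calls to 6180 higher and 4696 lower for the p53 KO response (2668 and 2318 without it), 5660 and 5136 for the difference of p53 KO from WT (2837 and 2961), 3474 and 2418 for that of Dux KO (601 and 903), 3138 and 2344 in p53 KO controls (40 and 214) and 2837 and 2525 in Dux KO controls (188 and 99). DESeq2 called 1612 and 1841 for the difference of Dux KO from WT, 548 and 764 in p53 KO controls and 955 and 1188 in Dux KO controls. On FPKM scaling, limma with log2(FPKM + 1) called 3391 higher and 4455 lower in WT (8297 and 6700 in edgeR) and 1780 and 449 in p53 KO. The median of all genes for the WT response was 0.13 with TMM, 0.23 with RLE and -0.16 in that limma fit. Of the inhibitors other than Dusp6, Spry2 and Spry4, that fit tested 7 and called 4 higher and 0 lower in WT. The block called 6 and 3 of these inhibitors in p53 KO cells (1 and 2 without it) and 8 and 4 of the ERK output genes (3 and 2). With 12 libraries the block no longer called Dusp6 (adjusted p = 0.07) or Spry4 (adjusted p = 0.061) in WT. Each group had 2 libraries and Dux KO controls 1 in the tests. Where 1 library was left a group of 1, that library was assumed to vary like the others.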
